A study of Junco hyemalis with 48 samples.

Results

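The gene models described here had more mRNA in the dark inner tail feather than in the white outer tail feather of dark-eyed juncos. In the bicoloured feather between them, the mean level of the dark part was less than 1.3 times that of the white part. There were 24 such gene models among the 20808 of the count table. They were chosen by measured levels in CPM, the count of a gene model per 1000000 counts of its library. The mean over birds had to be at least 1 CPM in the inner feather and at least 1.5 times the mean of the outer feather, with the inner feather higher in every bird that had both. In the bicoloured feather the mean of the dark part had to be below 1.3 times the mean of the white part. The inner against outer difference and the dark against white difference within the bicoloured feather were thus used for the choice, and their values are given as description. Calls of the members for these differences were shaped by the choice, so nothing is read from them.

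Dark-eyed juncos (Junco hyemalis) are small songbirds whose closed tail looks dark and whose outer tail feathers show white when the tail is spread. Tail feathers (rectrices) of both sides were plucked to start regrowth and the growing feathers were pulled 14 days later, so all groups are regrowing feathers. The study compared pigmented with apigmented feather tissue, and the labels give no drug, genotype, sex or age. The inner feather was rectrix 2 (R2), pigmented and frozen whole, with 11 libraries from 6 birds. The pigmented part of rectrix 4 (R4) had 13 libraries from 7 birds, and the apigmented part of R4 had 11 libraries from 6 birds. The outer feather was rectrix 6 (R6), apigmented and frozen whole, with 13 libraries from 7 birds. Bird E had no R2 library and bird C no library of the apigmented part of R4. The R4 parts were dissected apart and lie at different points along 1 feather, whereas R2 and R6 were not dissected. Dissection and feather position therefore cannot be told apart between R4 and the other feathers, nor pigment and position along the feather within R4.

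A growing feather is a tube of epidermis around a core of dermal pulp. Melanocytes at its base make melanin and pass it to the keratinocytes of the forming barbs, and white regions are those where keratinocytes receive no melanin. Feather follicles also carry positional differences along the body that set a feather's size and shape, so the inner and the outer rectrix differ in place as well as in colour. A gene that is high in R2 and low in R6 may therefore differ with colour or with place, and the R4 parts are the comparison of colours within 1 feather.

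Library totals lay between 12.99 and 53.46 M counts, with group medians of 18.1 M in R2, 20.5 M in R4 pigmented, 18.6 M in R4 apigmented and 23.9 M in R6. RNA was extracted in 3 batches, with birds A and B in batch 1, birds C, D and E in batch 2, and birds F and G in batch 3 together with the R4 apigmented library of bird E. Left and right libraries of a bird and group were averaged first, so that birds are the replicates. Of 22 left and right pairs none looked like 1 library deposited more than once, and the pair that differed most was the R4 pigmented pair of bird B, with a chi-square per gene of 139.9 where counting noise gives about 1. Each member is identified by its gene model number only, since the files do not pair numbers with gene names. No function, cell type or position is therefore attached to any of them, and the labelled tissue could not be checked against markers. Near-identical copies and overlapping gene models could not be recognised either, which leaves the levels of such gene models uncertain. The RNA came from whole pieces of tissue, in which fewer cells of a type and less RNA per cell cannot be told apart.

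Of 13074 gene models with at least 1 CPM in R2, 114 had an R2 mean of at least 1.5 times the R6 mean and 87 of these were higher in R2 in every bird. In 63 of the 87 the pigmented part of R4 was at least 1.3 times the apigmented part, and the remaining 24 are the members. Their R2 means ran from 1.13 to 162 CPM with a median of 5.58 CPM, and their R6 means from 0.331 to 91.6 CPM with a median of 2.93 CPM. CPM is not scaled by gene length, so its order among gene models reflects count depth and not abundance of molecules. The ratio of R2 to R6 lay between 1.52 and 4.96 with a median of 1.86, and was at least 2 in 10 members. The ratio of the pigmented to the apigmented part of R4 lay between 0.847 and 1.295 with a median of 1.09. All 24 passed the low-count filter of the fit over 15844 gene models. They are not deep throughout, since 11 had an R2 mean below 5 CPM and 10 had fewer than 10 counts in at least 1 bird and group.

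The members next to the thresholds were close to gene models left out. The smallest R2 to R6 ratio among members was 1.52 in g6957, and the nearest gene model that missed this condition alone was g20317 at 1.49. The lowest R2 mean among members was 1.13 CPM in g17049, and the nearest excluded one was g17047 at 0.912 CPM. The largest R4 ratio among members was 1.295 in g3413, and the nearest excluded one was g3463 at 1.32. Little separates those pairs, so the list has soft edges. The R2 to R6 ratio also compares different sets of birds, since bird E had R6 but no R2. In g6957 and g20251 bird E had the lowest R6 level, at 0.348 and 20.7 CPM, which raised their ratios. In other members, such as g12019, it had the highest R6 level. With bird E left out, g6957 and g20251 fell below the R2 to R6 limit. The rule then took 32 gene models, of which 22 were members.

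To say where R4 lies between the whole feathers, each R4 mean was placed on a scale on which the R6 mean is 0% and the R2 mean is 100%, in CPM. The median member had the pigmented part of R4 at 47.0% and the apigmented part at 26.5%. The pigmented part ranged from -16.7 to 91.0% and the apigmented part from -16.9 to 73.1%. Both parts lay between R6 and R2 in 18 of 24 members, and in the other 6 at least 1 part lay below R6. The pigmented part had the higher position in 19 members. The pigmented means include bird C, which had no apigmented part. In g19372, g15977 and g17049 the higher pigmented mean rests on bird C. With R4 means over the birds with both parts, the rule took 27 gene models, all 24 members among them. Their medians were 42.6% for the pigmented and 25.1% for the apigmented part. In the 63 inner-feather gene models left out by the R4 condition, the medians were 67.3% for the pigmented part and -0.693% for the apigmented part. The mean of both R4 parts differed less between the lists, with a median of 37.9% in the members and 33.6% in the other 63. The R4 condition itself brings the parts together in the members, so this contrast with the 63 is a description. The 26.5% also comes from the libraries used for the choice. For gene models chosen on 1 side and measured on the other, the median of the apigmented part was lower. It was 12.6% with the choice on the left and 7.51% with the choice on the right.

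**Figure D1:**
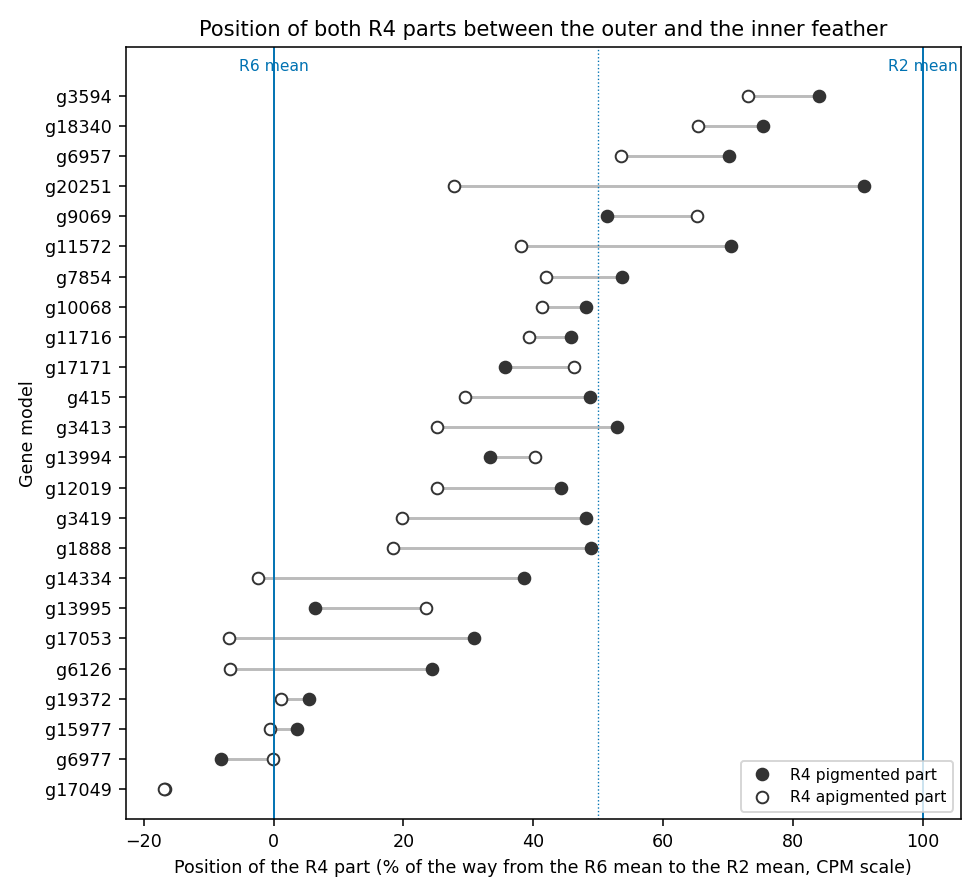
Position of the pigmented and the apigmented part of R4 for each of the 24 gene models, in % of the distance from the R6 mean to the R2 mean on the CPM scale. In 16 gene models both parts lie below 50%, in 4 both lie at or above it, and in 4 the parts lie on different sides of it.

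The 24 members were spread along this scale. In 6 of them both R4 parts were below 25%, that is, near or below R6, and these were g19372, g6977, g17049, g15977, g13995 and g6126. Another 10 had both parts below 50% with at least 1 part above 25%, and these were g10068, g13994, g415, g17171, g12019, g11716, g3419, g17053, g1888 and g14334. In g9069, g18340, g3594 and g6957 both parts were at or above 50%, nearer to R2. These are positions of means, and in g9069 each bird with both parts had 1 part far above the other. In g20251, g11572, g7854 and g3413 the pigmented part was above 50% and the apigmented part below it.

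The gene model g19372 is the clearest case of R4 at the outer-feather level. Its lowest, median and highest levels over birds were 13.9, 19.7 and 25.1 CPM in R2, 1.62, 7.24 and 11.2 CPM in the pigmented part of R4, 3.29, 7.34 and 8.77 CPM in the apigmented part, and 3.97, 6.59 and 8.82 CPM in R6. Every R2 bird was above every bird of the other 3 groups, and the other 3 groups overlapped. The means were 19.5 CPM ± 4.34 (SD, n = 6 birds) in R2, 7.22 ± 3.33 (n = 7) in R4 pigmented, 6.67 ± 2.07 (n = 6) in R4 apigmented and 6.51 ± 1.93 (n = 7) in R6, which put the R4 parts at 5.49 and 1.18% of the distance. The difference of R4 from the middle of R2 and R6 was not itself used for the choice, but it rests on the same groups. It would be separate from the choice only on a log scale with equal weights. The choice used CPM means over 6 or 7 birds, so some dependence may remain. In edgeR's quasi-likelihood test the log2 mean of the R4 parts of g19372 was 0.65 below that midpoint (SE 0.16, adjusted p = 0.101, Benjamini-Hochberg), which misses the 0.05 threshold. The lowest R4 pigmented level, 1.62 CPM, was that of bird B. Without that profile the difference was 0.55 (SE 0.09, edgeR adjusted p = 0.0036). Leaving out any 1 of the other birds gave edgeR adjusted p-values from 0.111 to 0.366. Without the bird term the edgeR adjusted p was 0.388. Over all 15 settings the highest, also from edgeR, was 0.930.

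The gene model g6977 had the same shape at a higher level. It measured 19.3, 26.9 and 33.2 CPM (lowest, median, highest) in R2, 4.01, 8.36 and 18.9 CPM in the pigmented part of R4, 7.28, 11.4 and 19.0 CPM in the apigmented part, and 9.003, 12.3 and 17.4 CPM in R6. R2 again lay above all birds of the other groups, if narrowly, and the lowest pigmented value was that of bird B. The R4 mean of g6977 was 0.59 below the midpoint on the log2 scale (SE 0.18, edgeR adjusted p = 0.281), also short of the threshold.

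The third gene model whose R2 birds lay above all R4 birds was the low-count g17049. It measured 0.770, 1.03 and 1.50 CPM in R2, 0.113, 0.453 and 0.719 CPM in R4 pigmented, 0.185, 0.419 and 0.707 CPM in R4 apigmented, and 0.236, 0.439 and 0.870 CPM in R6. Both R4 means were below the R6 mean, but the spreads of those 3 groups cover each other. The lowest R4 pigmented value rests on 2 counts, and none of these levels is precise. R2 lay above both R4 parts without overlap in 3 of 24 members, against 0.0694% of all gene models tested and 0 of the 63 other inner-feather gene models. The choice took gene models with a high R2 and, for the 63, a high pigmented part of R4, so nothing is read from that difference. R2 lay above R6 without overlap in 9 members, against 0.581% of all gene models tested, a contrast the choice used.

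The remaining gene models with low R4 levels were less regular. In g15977 the lowest, median and highest R2 levels were 1.76, 3.22 and 17.9 CPM, and the mean of 7.07 CPM ± 7.11 (SD, n = 6) was carried by bird B at 17.9 CPM and bird C at 14.3 CPM. Its R4 pigmented levels were 0.417, 1.21 and 6.25 CPM, its R4 apigmented levels 0.262, 0.406 and 8.36 CPM, and its R6 levels 0.380, 0.606 and 7.35 CPM. Birds differed more than groups did, and all 4 groups overlapped. In g13995 the means were 6.33 CPM ± 2.05 (SD, n = 6) in R2, 3.43 ± 1.31 (n = 7) in R4 pigmented, 3.96 ± 1.07 (n = 6) in R4 apigmented and 3.23 ± 0.631 (n = 7) in R6, and R2 overlapped each of the other groups. In g6126 they were 4.46 ± 1.37, 3.07 ± 1.92, 2.50 ± 1.47 and 2.62 ± 1.19 CPM in the same order, with wide overlap.

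**Figure D2:**
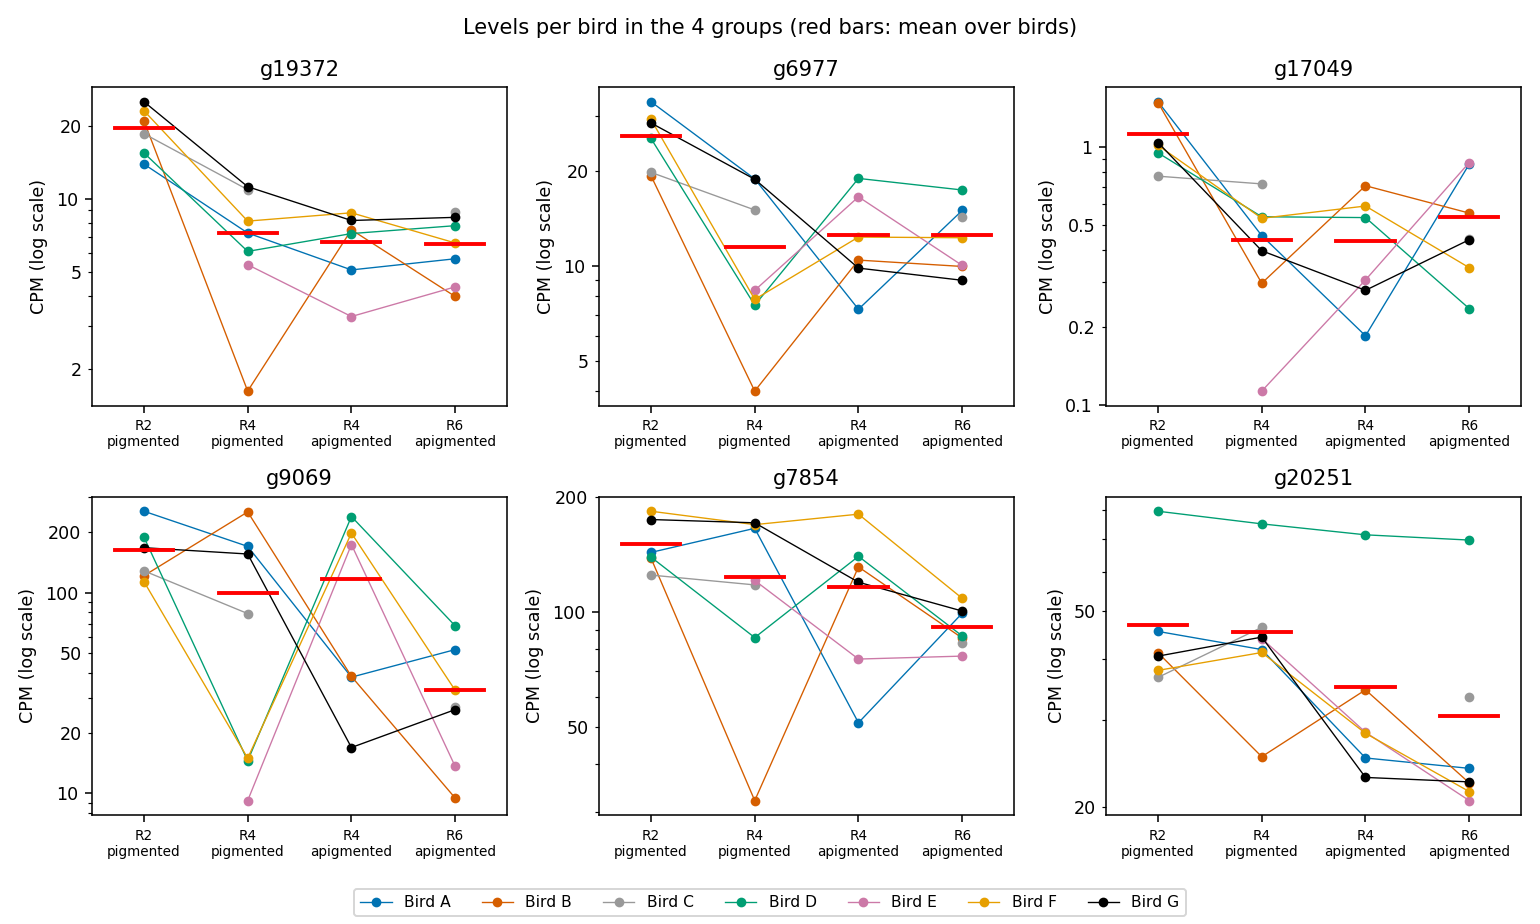
Levels of 6 gene models in CPM on log axes, 1 point per bird with left and right libraries averaged, in R2, R4 pigmented, R4 apigmented and R6 from left to right, and red bars for the mean over birds. In g19372, g6977 and g17049 all R2 points lie above all R4 points, whereas in g9069, g7854 and g20251 R2 and R4 overlap.

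At the opposite end, R4 lay nearer to R2. The gene model g18340 measured 5.81, 7.61 and 9.63 CPM (lowest, median, highest) in R2, 2.36, 6.81 and 11.3 CPM in R4 pigmented, 3.21, 6.01 and 11.2 CPM in R4 apigmented, and 1.50, 3.78 and 5.54 CPM in R6. All R2 birds were above all R6 birds, and each R4 part reached from the R6 range to above the R2 range. The R4 means stood at 75.3% (pigmented) and 65.4% (apigmented) of the distance, and the R4 mean lay 0.26 above the midpoint on the log2 scale (SE 0.18, edgeR adjusted p = 0.667). The low-count g3594 averaged 1.88 CPM ± 1.39 (SD, n = 6) in R2, 1.71 ± 1.06 (n = 7) in R4 pigmented, 1.59 ± 1.48 (n = 6) in R4 apigmented and 0.795 ± 0.586 (n = 7) in R6. All 4 groups of g3594 overlapped, and it had 7 counts at the fewest in R6.

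The gene models with the highest R2 means were g9069, g7854 and g20251. The gene model g7854 measured 125, 141 and 184 CPM (lowest, median, highest) in R2, 32.1, 121 and 171 CPM in R4 pigmented, 51.4, 126 and 181 CPM in R4 apigmented, and 76.7, 86.7 and 109 CPM in R6. R2 stood clear of R6, while R4 ran from below the lowest R6 bird to near the highest R2 bird in both parts. In g20251 the levels were 36.7, 40.8 and 79.6 CPM in R2, 25.3, 44.0 and 75.0 CPM in R4 pigmented, 23.0, 28.3 and 71.3 CPM in R4 apigmented, and 20.7, 22.5 and 69.6 CPM in R6. Bird D was the highest in all 4 groups of g20251, and the pigmented part stood at 91.0% of the distance but the apigmented part at 27.9%, the widest gap among the 24. Its R4 ratio of 1.29 lies just under the limit of 1.3, and its pigmented part was the higher in 5 of 6 birds.

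Middle positions were exemplified by g11716, g12019 and g1888. The gene model g11716 measured 11.9, 17.6 and 24.8 CPM in R2, 7.66, 13.1 and 21.5 CPM in R4 pigmented, 7.81, 10.96 and 21.0 CPM in R4 apigmented, and 6.22, 10.6 and 15.0 CPM in R6. The groups overlapped although R2 was above R6 in each bird, since birds differed in level. In g12019 the R2 levels were narrow, at 12.4 CPM ± 0.896 (SD, n = 6), against 9.27 ± 3.93 (n = 7) in R4 pigmented, 8.20 ± 3.95 (n = 6) in R4 apigmented and 6.81 ± 1.95 (n = 7) in R6. The SD within R4 was thus larger than in either whole feather. In g1888 the means were 8.03 CPM ± 1.66 (SD) in R2, 6.47 ± 1.71 in R4 pigmented, 5.53 ± 1.74 in R4 apigmented and 4.97 ± 1.29 in R6, and all 4 groups overlapped.

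The smaller members in the middle had R2 means of at most 5.31 CPM. Among them g10068 had the second largest R2 to R6 ratio, 3.94, with 1.31 CPM ± 0.603 (SD, n = 6) in R2, 0.801 ± 0.352 (n = 7) in R4 pigmented, 0.734 ± 0.449 (n = 6) in R4 apigmented and 0.331 ± 0.160 (n = 7) in R6. It had as few as 4 counts in a bird and group, and R2 and R6 overlapped by the low value of bird F. The gene model g13994 averaged 1.36 CPM in R2, 0.862 in R4 pigmented, 0.914 in R4 apigmented and 0.612 in R6. Its R2 birds lay just above all R6 birds, by 0.918 against 0.917 CPM at the nearest. In g3413 the means were 1.85, 1.33, 1.03 and 0.754 CPM in the same order of groups, and g3413 and g13994 both had R2 above R6 without overlap. The gene models g13994 and g13995 carry consecutive numbers, the only such pair among the 24, and both had R4 apigmented means above their R4 pigmented means. The sources used here do not say what the order of the numbers stands for.

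The other 7 members were of low or moderate depth. In the order R2, R4 pigmented, R4 apigmented and R6, the means were 5.85, 5.16, 4.40 and 3.501 CPM in g11572, 5.31, 4.18, 3.42 and 3.46 CPM in g14334, and 3.54, 2.55, 2.01 and 2.11 CPM in g17053. They were 2.61, 2.06, 1.75 and 1.55 CPM in g3419, 2.41, 2.16, 2.03 and 1.59 CPM in g6957, 1.71, 1.305, 1.15 and 0.921 CPM in g415, and 1.34, 0.942, 1.01 and 0.722 CPM in g17171. R2 lay above R6 without overlap in g3419 of these 7. In g6957 bird A carried much of each mean, with 5.96 CPM in R2, 6.13 CPM in R4 pigmented, 6.54 CPM in R4 apigmented and 4.69 CPM in R6.

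The fit over all gene models placed few of these differences past the threshold. The model held group and bird, and the bird term takes out each bird's own level. The p-values therefore rest on the size of each difference between groups, set against how much such differences vary among these birds. For the R4 mean against the midpoint of R2 and R6, which the choice did not use directly, edgeR called 0 of the 24 members, against 0.404% of all gene models tested. At an unadjusted p below 0.05 there were 4 of 24 (g19372, g6977 and g17049 below the midpoint, g3594 above it), against 1508 of 15844 gene models tested. DESeq2 called 1, g19372, below the midpoint, a count with no share over all gene models beside it. The median log2 difference from the midpoint was -0.04 in the members and 0.00 over all gene models tested, with 10 of 24 members above 0. On this scale the list as a whole stood near the middle, with members on both sides.

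The R4 mean against R6, and R2 against the R4 mean, each share a whole feather with the choice, so both are biased upward in the members and their calls stand as description. The R4 mean was called higher than R6 in 2 of 24 members, against 0.227% of all gene models tested. These were g20251, by 0.47 on the log2 scale (SE 0.10, edgeR adjusted p = 0.0210), and g3594, by 1.00 (SE 0.23, adjusted p = 0.0449). Both calls were lost on leaving out any of birds A, E, F and G, with adjusted p from 0.0879 to 0.234, and that of g3594 also without bird C, at 0.115. Without the bird term both adjusted p-values were 0.9994.

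R2 was called higher than the R4 mean in 4 members, against 0.650% of all gene models tested. The differences were 1.40 in g19372 (SE 0.19, edgeR adjusted p = 0.0007), 1.11 in g6977 (SE 0.22, adjusted p = 0.0166), 0.57 in g11716 (SE 0.12, adjusted p = 0.0257) and 1.27 in g17049 (SE 0.28, adjusted p = 0.0357), all on the log2 scale. The call of g19372 held under each alternative except the right libraries alone, where the adjusted p was 0.0674. Those of g6977, g11716 and g17049 held in 9, 7 and 7 of 15 settings with the reported one included. Each was lost on leaving out bird A, B or D, with edgeR adjusted p from 0.0705 to 0.181. Without bird F those of g6977 (adjusted p = 0.133) and g17049 (0.0859) were lost too, and without bird G those of g17049 (0.213) and g11716 (0.158). For the differences used in the choice, R2 was called above R6 in 10 of 24 members against 0.808% of all gene models. The R4 parts were called different in 0 of 24 against 0.738%. At an unadjusted p below 0.05 there was 1 (g20251, pigmented part higher), against 2072 of 15844 gene models. The choice itself shaped those counts, so nothing is read from them.

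Choosing on 1 side of the tail and measuring on the other side gave values the choice did not use, although both sides come from the same birds. On the left libraries alone the rule took 25 gene models, of which 17 are members. In the right libraries 23 of the 25 were higher in R2 than in R6, 16 by at least 1.5 times, and their median R2 to R6 ratio was 1.63. Their R4 ratio was below 1.3 in 21, with a median of 1.07, and 11 met the whole rule again. The share of all gene models with an R4 ratio below 1.3 was not taken, so the 21 is not read further. Among the right libraries edgeR called 3 of the 25 higher in R2 than in R6, against 0.370% of all gene models. They were the members g11716, by 0.96 (log2, SE 0.19, adjusted p = 0.0253), and g10068, by 2.25 (SE 0.48, adjusted p = 0.0445), and the non-member g3463. The R4 parts were called different in 0 of 25 by edgeR, against 0.0202%, with 1 at an unadjusted p below 0.05 (g3463). A missed threshold does not show that the parts were equal. The R4 mean was called different from R6 in 0 of 25 by edgeR in the right libraries, against 0.188% of all gene models. Counts at an unadjusted p within 1 side stand here without a share over all gene models, so nothing is read from them.

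In the opposite direction, the rule took 49 gene models on the right libraries, 17 of them members. In the left libraries 43 of these were higher in R2 than in R6 and 31 by at least 1.5 times, but 24 kept an R4 ratio below 1.3, with a median of 1.33. The 24 likewise has no share over all gene models beside it and is not read further. Of the 49, 11 met the whole rule. On the left libraries edgeR called 8 of 49 higher in R2 than in R6, against 0.411%, among them g19372 by 1.65 (log2, SE 0.24, adjusted p = 0.0006) and g11716 by 0.87 (SE 0.17, adjusted p = 0.0174). The gene model g19372 was also 1.47 higher in R2 than in the R4 mean (SE 0.20, adjusted p = 0.0016), 1 of 2 so called, against 0.405%. The R4 parts of the 49 gave 0 calls in edgeR against 0.213%, with 11 at an unadjusted p below 0.05, a count not read further. Their R4 mean against R6 also gave 0 calls in edgeR, against 0.411%. With the choice made on the left, g19372 in the right libraries was higher in R2 than in R6 by 1.35 (log2, SE 0.30, edgeR adjusted p = 0.0576) and higher in R2 than in the R4 mean by 1.27 (SE 0.26, adjusted p = 0.0674), and both miss the threshold. The same 11 gene models, all members, were chosen on the left alone and on the right alone. Left against right feathers, a difference the choice did not use, gave 0 of 24 calls in edgeR and in DESeq2 and 0 at an unadjusted p below 0.05, against 0% of 14780 gene models.

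Near-equal means in the R4 parts did not come from near-equal levels within birds. The ratio of the pigmented to the apigmented part could be taken in 6 birds, and 21 of 24 members were at least 1.5-fold higher in the pigmented part in at least 1 bird and at least 1.5-fold lower in at least 1 other. The same was seen in 24 of the 63 other inner-feather gene models (38.1%) and in 24.98% of all tested gene models with at least 1 CPM in R2. None of the 24 was higher in the pigmented part in all 6 birds, against 17 of the 63 (27.0%) and 2.56% of all. The median SD of the log2 ratio over birds was 0.867 in the members, 0.801 in the 63 and 0.322 over all. A gene model with opposite directions in different birds can pass the R4 condition on the mean, so these counts describe the list and test nothing.

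**Figure D3:**
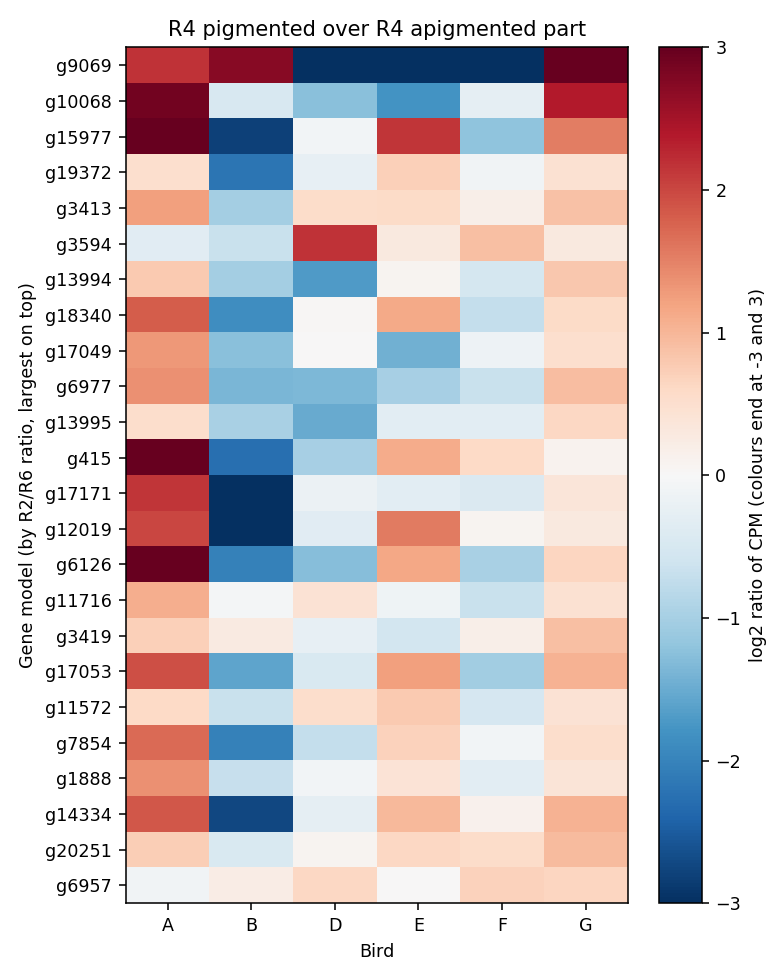
The log2 ratio of R4 pigmented to R4 apigmented CPM in each bird (columns) for the 24 gene models (rows, by R2 to R6 ratio), red where the pigmented part was higher and blue where it was lower. Birds A and G are mostly red, with 22 and 24 gene models higher in the pigmented part, and bird B is mostly blue, with 3.

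The direction differed between birds. In bird A the pigmented part was higher in 22 of 24 members, with a median log2 ratio of 1.25, and in bird G in all 24, with a median of 0.54. In bird B it was higher in 3 (g9069, g3419 and g6957), with a median of -0.77. Birds D and F had 8 members higher each, with medians of -0.22 and -0.23, and bird E had 16, with a median of 0.37. The median log2 ratio over all gene models tested had the same sign as that of the members in birds A, B, E, F and G but not in bird D, and was nearer to 0 in each bird. It was 0.35 in bird A, -0.15 in B, 0.04 in D, 0.13 in E, -0.04 in F and 0.17 in G. Relative to that shift the members' medians were 0.90 in A, -0.63 in B, -0.25 in D, 0.23 in E, -0.19 in F and 0.37 in G. With TMM scaling, which removes most of the shift, the signs of all 6 member medians were the same.

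In the 63 other inner-feather gene models the pigmented part was higher in all 63 in bird A, 19 in B, 60 in D, 62 in E, 57 in F and 61 in G, so bird B stood apart there too. The 20 most abundant gene models took 11.9% of counts in the pigmented part and 22.9% in the apigmented part of bird A, and 11.5 and 19.0% in bird G, whereas bird B had 16.2 and 14.5%. The other birds had 13.5 to 14.7% in the pigmented part and 13.6 to 17.4% in the apigmented part. The part of these shares, or of the dissection, in the birds' directions was not tested.

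Several members show this order of birds at high counts. In g7854 the ratio of the pigmented to the apigmented part was 3.23 in bird A and 0.245 in bird B, with 0.613, 1.61, 0.939 and 1.43 in birds D, E, F and G. The levels behind it were 166 against 51.4 CPM in bird A and 32.1 against 131 CPM in bird B. In g12019 bird B had 1.63 CPM in the pigmented part and 13.9 CPM in the apigmented part, and bird A had 12.7 and 3.16 CPM. The R4 parts of 1 bird thus spanned more than the distance between the R2 mean of 12.4 CPM and the R6 mean of 6.81 CPM. In all, 21 members were lower in the pigmented part of bird B, 18 of them by at least 1.5-fold, and 20 were higher by at least 1.5-fold in that of bird A.

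**Figure D4:**
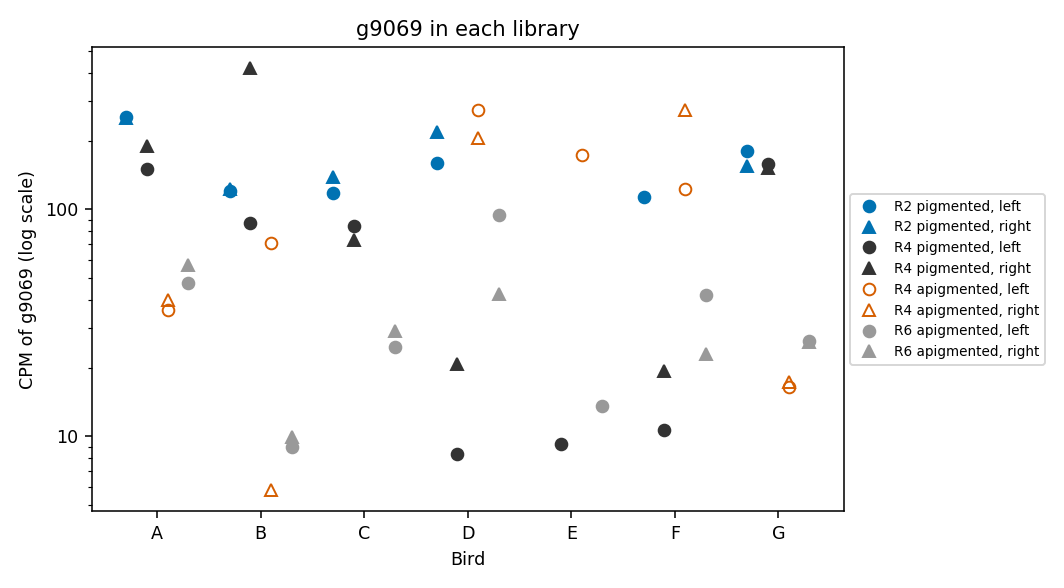
CPM of g9069 in each library on a log axis, by bird, for R2, R4 pigmented, R4 apigmented and R6. The pigmented part is above the apigmented part in birds A, B and G and below it in birds D, E and F. Where both sides of the tail were sequenced they show the same direction, and bird E has left libraries only.

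The gene model g9069 had the highest R2 mean, the largest R2 to R6 ratio (4.96) and the widest spread within R4. It measured 114, 148 and 254 CPM (lowest, median, highest) in R2, 9.21, 78.7 and 252 CPM in R4 pigmented, 16.9, 106 and 239 CPM in R4 apigmented, and 9.48, 27.0 and 68.3 CPM in R6. R2 was clear of R6, and both R4 parts ran from the R6 range into the R2 range. The R4 parts averaged 99.4 CPM ± 95.3 (SD, n = 7) and 117 ± 97.2 (n = 6), for pigmented and apigmented, so the mean ratio was 0.847.

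By bird, g9069 had 170 CPM in the pigmented part against 37.9 CPM in the apigmented part in bird A, 252 against 38.3 CPM in bird B, and 156 against 16.9 CPM in bird G. The order was turned round in the other 3 birds with both parts, with 14.5 against 239 CPM in bird D, 9.21 against 174 CPM in bird E, and 15.0 against 198 CPM in bird F. The lower part was below the bird's own R6 level in birds A, D, E, F and G, and above it in bird B. The higher part was above the bird's own R2 level in birds B, D and F and below it in birds A and G, so in no bird were the parts alike. Bird B had the high value in the pigmented part here, unlike in most members, and left and right differed, with 87.4 against 70.7 CPM on the left and 417 against 5.78 CPM on the right. Where both sides were sequenced in both parts they gave the same direction. The depth behind these values is large, with at least 163 counts in a bird and group. Of the extraction batches, batch 1 held birds A and B, both with the higher level in the pigmented part, and batch 2 held bird D and the pigmented part of bird E, with the higher level in the apigmented part. Batch 3 held bird G with a high pigmented part and bird F with a high apigmented part, and the part of the batch in these directions was not tested.

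The position between R6 and R2 also differed between birds. Over the 5 birds with all 4 groups, the members' median position of the pigmented part was 75.6% in bird A, -29.7% in B, 19.7% in D, 38.4% in F and 73.8% in G. For the apigmented part it was -39.8% in A, 40.4% in B, 48.2% in D, 63.6% in F and 3.05% in G. In birds A and G the pigmented part therefore lay nearer to R2, and in birds B, D and F the apigmented part did. The mean of both parts had a median position of 19.9% in A, -1.11% in B, 53.1% in D, 59.5% in F and 43.9% in G.

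Within extraction batches the median R2 to R6 ratio of the members was 1.83, 1.82 and 2.10 in batches 1, 2 and 3. The median R4 ratio was 1.08, 0.941 and 1.21 in the same order, the median position of the pigmented part 11.2, 49.8 and 56.6%, and that of the apigmented part 1.18, 60.2 and 21.9%. Each batch had 1 to 3 birds per group, too few for a test. In batch 2 the pigmented parts of birds C, D and E were set against the apigmented part of bird D alone. In batch 3 those of birds F and G were set against the apigmented parts of birds E, F and G. The R4 ratios of these batches thus compare different sets of birds. Leaving out the R4 pigmented profile of bird B kept 19 of the 24 members, with g14334, g17053, g20251, g3413 and g6126 passing the limit on the R4 ratio. The median position of the pigmented part was then 58.9%, and the R4 ratio of g9069 was 0.629.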

How the data were processed

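Tail-feather RNA of 7 birds was sequenced in 48 libraries. Per the labels' protocols, stranded mRNA libraries were made, and the submitters' processing notes list STAR 2.7.2b, Trimmomatic 0.33, Subread 1.6.0, featureCounts and bcl2fastq. Order, settings, strandedness of counting, genome build and gene models are otherwise not given in the sources used here. Raw counts per gene model were deposited by the authors, 1 column per library, with no normalization. The series text gives 7 birds and the growth protocol 6, and the labels carry 7 animal identifiers, which were used.

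CPM was the count over the library total, averaged over sides per bird, then over birds. For tests, left and right counts were summed into 26 profiles and fitted with edgeR 4.0.16 (R 4.3.3; quasi-likelihood F test, robust dispersion, TMM, default expression filter, group and bird, Benjamini-Hochberg adjusted p below 0.05). SE is the log2 fold over the square root of F. Bird ratios are log2(CPM + 0.5) where given as log2. The bird term pairs tissue taken from 1 animal. Departures from the group means correlated between profiles of 1 bird with a median r of 0.472 over 36 pairs (lowest -0.214), against -0.0745 between different birds.

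The members, lists and tests were chosen with earlier results of these data known. Named gene models were those with the largest R2 to R6 ratio among members of at least 5 CPM, the highest R2 means, the largest ratios among those chosen on each side alone, those at the thresholds, those with the lowest and highest R4 positions, and those with the smallest adjusted p on the other side. Others are named because every member is accounted for. Alternatives were DESeq2 1.42.0, other scalings and filters, no bird term, each bird or side left out, and other rule limits.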

Additional observations from a re-analysis of the deposited data

Results flagged for a closer look

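In each of the 96 combinations of member and group, the highest and the lowest bird were set against the other birds by Dixon's test. It marked 12 birds. Chance gives about 4.8 if the levels within each combination are normally distributed, which was not checked. The combinations are also not independent of each other. Bird D was far above the others in all 4 groups of g20251, with 79.6 CPM in R2 (next 45.4), 75.0 CPM in R4 pigmented (next 46.3), 71.3 CPM in R4 apigmented (next 34.6) and 69.6 CPM in R6 (next 33.4). Bird A was far above the others in 3 groups of g6957, with 5.96 CPM in R2 (next 2.08), 6.54 CPM in R4 apigmented (next 1.81) and 4.69 CPM in R6 (next 1.87). Bird B was far above the others in g15977, with 8.36 CPM in R4 apigmented (next 1.88) and 7.35 CPM in R6 (next 2.85). In these 3 gene models the same bird was marked in more than 1 kind of feather tissue. Single marks were bird A in R6 of g13995, at 4.49 CPM (next 3.30), bird F in R4 apigmented of g17171, at 2.14 CPM (next 0.965), and bird E in R6 of g3419, where it was lowest at 0.812 CPM (next 1.45).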

How the results depend on the processing

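The list of 24 depends on its limits. It held 10 gene models with R2 at least 2 times R6, 13 with the R4 ratio below 1.1, 13 with R2 at least 5 CPM, 49 on right libraries alone, and 17 to 38 on leaving out 1 bird. Taking the R4 condition on the median paired ratio, an alternative chosen after seeing the data, gave 20 with 16 shared. The median position stayed between 34.3 and 58.9% for the pigmented part and between 16.5 and 41.3% for the apigmented part. In these alternatives the gene models were chosen and measured on the same libraries. Chosen on the left and measured on the right, the medians were 37.1% (pigmented) and 12.6% (apigmented). With the sides exchanged they were 56.3 and 7.51%. In both directions the apigmented part thus lay nearer to R6 than in any of those alternatives. These medians were taken over the gene models with R2 above R6 on the measured side. Calls against the midpoint numbered 1 with DESeq2, 1 without the R4 pigmented profile of bird B, and 0 to 1 on leaving out 1 bird. Calls of the R4 mean above R6 numbered 5 with DESeq2, 0 with library totals, 0 without the replicate block (bird), 5 without the R4 pigmented profile of bird B, 1 on left and 0 on right libraries, and 0 to 3 on leaving out 1 bird. Calls of R2 above the R4 mean numbered 2 with library totals, 1 on left and 0 on right libraries, and 1 to 4 on leaving out 1 bird. For gene models chosen on the left and tested on the right, calls of R2 above R6 numbered 7 with DESeq2, 1 without the block, 8 with the sides exchanged and 1 to 2 on leaving out 1 bird; of the R4 parts 0 to 1; and of R2 above the R4 mean 3 with DESeq2, 1 with library totals, 2 with the sides exchanged and 0 to 1. Shares over all gene models were not taken for DESeq2, library totals, no filter, no bird term, or a bird or profile left out. The counts under those settings are therefore not read as results about the members. The causes were not tested. Low counts limit the 11 members under 5 CPM.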
